A study of Mus musculus with 22 samples.

Results

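The 4 cancer RNA-seq libraries of a mouse bladder study were arranged here by their Arid1a read level. This is 4 of the study's 22 libraries. The labels call 2 of the 4 ARID1A KO and 2 ARID1A WT, with tissue given as bladder cancer and the extraction protocol naming isogenic bladder cancer organoids, which are 3-dimensional cultures of tumour cells. The rule used Arid1a CPM, the reads of a gene scaled to each library's own total. The libraries labelled WT 1 and KO 2 lay below 100 CPM, and the libraries labelled WT 2 and KO 1 lay above 150 CPM. Each set therefore holds 1 library of each label, so the read level and the labels disagree. The sets are a description made from a measured value. They are not treated and untreated groups, so the values below are given library by library, with no mean over a set and no test between the sets.

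The other 18 libraries come from primary bladder urothelial organoids, ARID1A KO and ARID1A WT, as total, subpolysome and polysome RNA with 3 libraries per genotype and fraction. Of these only the 6 total RNA libraries are used, to show how genes that stood apart in the cancer libraries behaved in samples that the rule did not use. The labels name no promoter, Cre driver, animal age or sex for either material, and they do not state whether replicates are different animals or cultures. The p-values below therefore speak only to the variation among these libraries, part or all of which could be technical.

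ARID1A is the DNA-binding subunit of the BAF complex, the mammalian SWI/SNF chromatin remodeller. The complex uses ATP to move or evict nucleosomes at enhancers and promoters, and it works against Polycomb repression at many genes. ARID1A is among the genes often inactivated in bladder cancer, and loss of the protein usually follows from truncating mutations or deletions.

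Arid1a (chr4:133679008-133756769, mm10) had 79.2 CPM in the library labelled WT 1 and 64.1 CPM in the library labelled KO 2, against 228 CPM in labelled WT 2 and 201 CPM in labelled KO 1. These are 4013 and 3551 reads against 11886 and 9744 reads. The exact Poisson 95% intervals, which cover counting error only, ran over 76.7–81.7 and 62.0–66.2 CPM against 223–232 and 197–205 CPM. No cancer library lay between the limits of 100 and 150 CPM, and the nearest libraries of the sets differed 2.54 times. Under the labels the same 4 values overlap: KO had 201 and 64.1 CPM, and WT had 79.2 and 228 CPM. The edgeR quasi-likelihood estimate of KO over WT was a log2 fold change of -0.18 ± 0.79 (SE, n = 2 libraries each), with an unadjusted p of 0.828. The deleted part of the gene is not given in the sources used here, so a count over the whole gene cannot say which library carries the deletion.

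In the primary organoids the level followed the labels. Arid1a had 93.2, 93.8 and 106 CPM in the KO libraries, against 139, 156 and 141 CPM in the WT libraries. KO lay below WT without overlap, at a log2 fold change of -0.60 ± 0.06 (SE, n = 3 each; edgeR adjusted p = 5.68e-06). The 2 cancer libraries above 150 CPM exceeded every primary library, and the 2 below 100 CPM lay below every primary KO library.

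**Figure D1:**
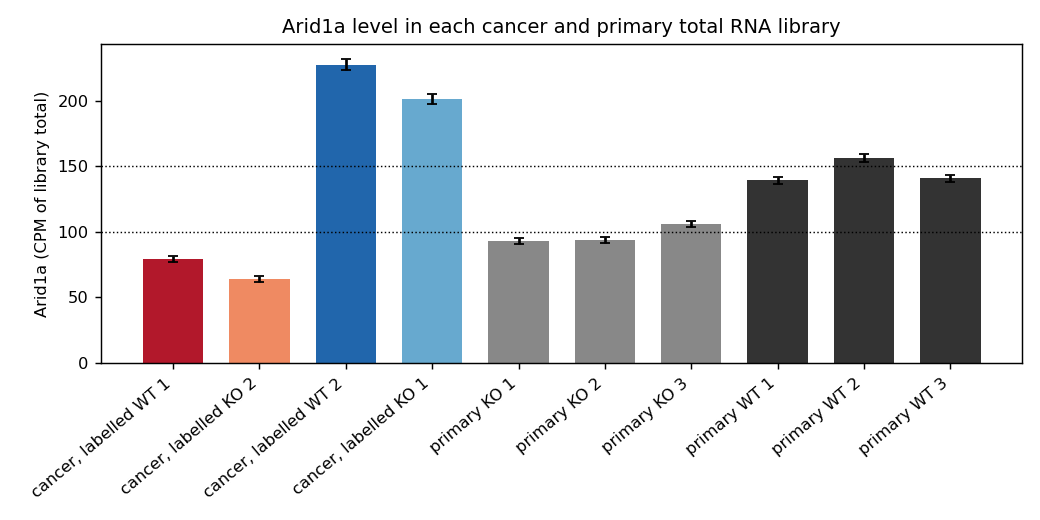
Arid1a level in CPM of the library total (y axis) for the 4 cancer libraries and the 6 primary total RNA libraries (x axis), 1 bar per library with its exact Poisson 95% interval; dotted lines mark 100 and 150 CPM. Labelled WT 1 and labelled KO 2 stand at 79.2 and 64.1 CPM, against 228 and 201 CPM for labelled WT 2 and labelled KO 1.

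Depth was similar, at 48429672 to 55431426 counts per cancer library and 66227600 to 74605489 per primary library, and 15143 to 15565 genes had a read in a cancer library. Labelled WT 1 and labelled KO 2 stood apart from the other pair and from each other. Labelled WT 2 and labelled KO 1 differed by at least 2 times at 973 of 12681 tested genes, with a Pearson correlation of log2 CPM across genes of 0.980. Every other pair differed at 2204 to 2424 genes, with correlations of 0.913 to 0.931, and labelled WT 1 against labelled KO 2 was one of those, at 2204 genes. Thus the pair above 150 CPM was alike across its genes, and the pair below 100 CPM was not. Labelled KO 2 also lacked the Y-linked genes: Ddx3y had 68.6 CPM in labelled WT 1 and 0.22 CPM in labelled KO 2, against 49.3 CPM in labelled WT 2 and 59.8 CPM in labelled KO 1. Eif2s3y, Kdm5d and Uty were at 0.07 CPM or less in labelled KO 2 and at 17.3 CPM or more in the others, while Xist was at 0.08 CPM or less in all 4.

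The cells carried the keratins of basal urothelium. Krt5 had 7790 and 9444 CPM in the libraries with low Arid1a, against 10721 and 8333 CPM in the others, and Trp63, the basal transcription factor, had 495 and 770 against 995 and 761 CPM; both overlapped between the sets. The umbrella cell uroplakin genes Upk2 and Upk3a were at 0 in all 4 libraries. Of 24 immune markers in the files 22 were under 1 CPM in every library, with a summed level of 8.93 to 11.9 CPM. The fibroblast markers summed to 14.5, 1.21, 0.23 and 0.68 CPM and the endothelial markers to 0.77, 0.88, 6.12 and 6.05 CPM. The smooth muscle markers summed to 341, 169, 184 and 196 CPM, in each case in the order labelled WT 1, labelled KO 2, labelled WT 2 and labelled KO 1. Under 1 CPM in every library were 9 of 12 fibroblast, 11 of 12 endothelial and 8 of 10 smooth muscle markers. These sums thus rest on few genes. In bulk RNA, fewer cells of a type and less RNA per cell cannot be told apart.

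A gene was called separated when both libraries with low Arid1a lay above, or both below, both libraries with high Arid1a. Of 12681 genes tested, 3230 were higher (25.5%) and 3386 were lower (26.7%) in the low-Arid1a libraries, 52.2% in all. Most of these separations were narrow. The gap between the nearest libraries reached 2 times at 410 higher genes (3.23%) and 524 lower genes (4.13%), and 4 times at 182 and 239. Arranged by the labels, KO and WT did not overlap at 2666 genes (21%), with KO above WT at 996 and below at 1670, and the gap reached 2 times at 57 and 45. These shares are the background for every list below. Since the pair above 150 CPM was alike throughout, any gene on which it differs from the other 2 libraries in the same direction is separated. A separated gene was therefore not shown to go with Arid1a.

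Genes with reads in essentially 1 set alone came first. Pax2, a transcription factor of kidney and urogenital development, had 77.3 and 8.59 CPM in labelled WT 1 and labelled KO 2, against 0.02 CPM in labelled WT 2 and in labelled KO 1. Igfbp2, which binds insulin-like growth factors, had 9.23 and 64.5 CPM against 0.08 and 0.02 CPM, and Tbx20, a T-box factor of heart development, had 5.09 and 25.3 CPM against 0.06 and 0 CPM. Klhl29, a member of the Kelch-like family, ran the other way, with 0.02 and 0.09 CPM in the low-Arid1a libraries against 12.7 and 15.4 CPM. The low values rest on 0 to 5 reads, so no ratio is given. The 250 bases before the start of these 4 genes are shown as promoter stretches only. Enhancers, which also control genes, can lie outside these windows and were not examined. They are the first listed RefSeq promoter of each gene on GRCm38.p6 (the mm10 build), 5′ to 3′ on the strand of the gene, with CG dinucleotides in capitals.
Pax2 promoter, chr19:44746351-44746600, plus strand: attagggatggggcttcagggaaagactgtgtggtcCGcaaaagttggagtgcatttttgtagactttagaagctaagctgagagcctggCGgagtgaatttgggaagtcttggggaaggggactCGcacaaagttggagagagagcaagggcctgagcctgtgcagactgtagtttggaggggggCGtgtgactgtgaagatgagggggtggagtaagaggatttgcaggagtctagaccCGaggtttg
Igfbp2 promoter, chr1:72824230-72824479, plus strand: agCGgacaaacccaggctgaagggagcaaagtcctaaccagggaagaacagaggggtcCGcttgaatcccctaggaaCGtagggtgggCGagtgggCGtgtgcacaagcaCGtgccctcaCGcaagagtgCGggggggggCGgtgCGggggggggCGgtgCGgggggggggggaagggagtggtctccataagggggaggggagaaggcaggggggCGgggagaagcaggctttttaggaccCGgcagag
Tbx20 promoter, chr9:24774304-24774553, minus strand: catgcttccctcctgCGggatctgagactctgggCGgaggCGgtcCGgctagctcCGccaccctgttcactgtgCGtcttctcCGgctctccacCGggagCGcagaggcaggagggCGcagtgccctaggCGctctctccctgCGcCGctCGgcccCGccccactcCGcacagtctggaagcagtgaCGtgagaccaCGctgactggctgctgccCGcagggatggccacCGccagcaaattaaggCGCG
Klhl29 promoter, chr12:5375683-5375932, minus strand: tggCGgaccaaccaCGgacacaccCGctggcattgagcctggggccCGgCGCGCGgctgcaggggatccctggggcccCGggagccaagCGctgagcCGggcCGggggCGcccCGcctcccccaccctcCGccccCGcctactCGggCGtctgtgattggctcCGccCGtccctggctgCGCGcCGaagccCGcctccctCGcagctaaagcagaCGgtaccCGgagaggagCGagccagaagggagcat

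These sequences hold 5 (Pax2), 14 (Igfbp2), 22 (Tbx20) and 27 (Klhl29) CG dinucleotides. Across the first promoters of 27025 genes the median was 6, the upper quartile was 16, and 38.2% had 10 or more. Tbx20 and Klhl29 lay above the upper quartile, Igfbp2 lay between the median and the upper quartile, and Pax2 lay below the median. RefSeq lists 3 promoters for Pax2 and 2 for Igfbp2, and those after the first were not counted. The AP-1 motif TGANTCA, searched on both strands, is in none of the 4 windows and in 6.87% of all promoters. The count files hold no measure of methylation or binding at these sites.

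The 12 widest gaps on the higher side, among genes with a mean of at least 16 CPM, included Pax2, Igfbp2 and the H19 RNA described with the imprinted genes. Nrp1, a co-receptor for semaphorins and VEGF, had 110 and 142 CPM in the low-Arid1a libraries against 8.46 and 9.62 CPM, a gap of 11.5 times. Cald1, the actin-binding protein caldesmon, had 218 and 130 CPM against 2.18 and 10.1 CPM, and Timp2, an inhibitor of matrix metalloproteinases, had 236 and 34.2 CPM against 0.77 and 0.95 CPM. Both low-Arid1a libraries carried these genes at 34.2 CPM or more, though Timp2 was 6.92 times higher in labelled WT 1 than in labelled KO 2. Kirrel, a nephrin-like adhesion protein, had 62.2 and 59.7 CPM against 0.29 and 1.69 CPM. Grik3, a kainate receptor subunit, had 128 and 214 CPM against 4.12 and 2.31 CPM, and Lgals7, a galectin of stratified epithelium, had 48.8 and 89.98 CPM against 4.10 and 4.81 CPM. Plac8, Ppic and Cfap69 complete the side, with Plac8 at 69.1 CPM in labelled WT 1 and 2.58 CPM in labelled KO 2, and at 0.06 CPM or less in the others.

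On the lower side, at the same minimum of 16 CPM, the widest gap was at Atp8b1, a phospholipid flippase, with 1.5 and 0.56 CPM in the low-Arid1a libraries against 103 and 79.7 CPM, 53.2 times apart. Stra6, the receptor that takes up retinol from its binding protein, had 18.7 and 23.1 CPM against 495 and 854 CPM. Krt10, a keratin of suprabasal squamous cells, had 44.5 and 61.1 CPM against 982 and 939 CPM, a gap of 15.4 times. All 3 genes were low in both low-Arid1a libraries, and at Krt10 the libraries within a set lay close. Enpp1, an ectonucleotide pyrophosphatase, had 2.53 and 0.41 CPM against 116 and 159 CPM, and Dio2, a thyroid hormone deiodinase, had 2.07 and 0.41 CPM against 67.6 and 87.2 CPM. Ano1, a calcium-activated chloride channel, had 2.05 and 7.69 CPM against 108 and 125 CPM, and Lmo1, a LIM-only transcription cofactor, had 0.49 and 3.12 CPM against 57.0 and 40.3 CPM. Vipr1, Gpr165, Tenm2, Cdc42ep2 and Tnfsf15 make up the rest, with gaps of 12.4 to 17.3 times.

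**Figure D2:**
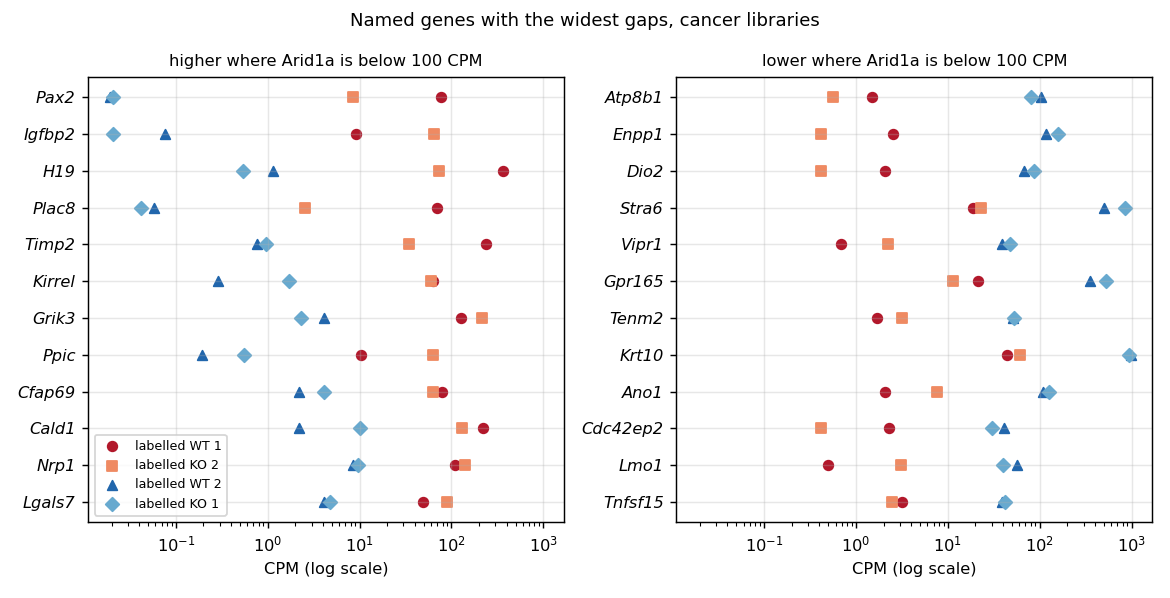
CPM on a log axis for the named genes with the widest gaps (mean of at least 16 CPM), 1 point per cancer library; the left panel shows genes higher and the right panel genes lower in the 2 libraries with Arid1a below 100 CPM. The red and orange points of labelled WT 1 and labelled KO 2 lie right of the blue points at Pax2 (77.3 and 8.59 CPM against 0.02 CPM) and left of them at Atp8b1 (1.5 and 0.56 CPM against 103 and 79.7 CPM).

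Squamous differentiation genes were mostly lower where Arid1a was low. Of 27 tested members, 18 were lower and 2 higher, against 26.7% and 25.5% of all genes, and 12 of the 18 had a gap of at least 2 times. The median member lay -0.77 and -1.25 log2 units from its own mean over the 4 libraries in labelled WT 1 and labelled KO 2, against 0.83 and 1.32 in labelled WT 2 and labelled KO 1. Over all genes these medians were 0.04 and -0.04 against 0.01 and 0.00. Besides Krt10, Krt1 had 130 and 50.7 CPM against 700 and 522 CPM, and Krt13, a keratin of non-cornified stratified epithelium, had 36.7 and 11.4 CPM against 303 and 201 CPM. Dsg1a, a desmosomal cadherin, had 4.44 and 5.95 CPM against 37.5 and 69.7 CPM, a gap of 6.30 times. Serpinb2, a protease inhibitor, was the member furthest the other way, with 342 and 345 CPM against 34.0 and 31.1 CPM, and Cstb was higher by a gap of 1.01 times. The count of lower members was 18 under every scaling tried. It was 23 without labelled WT 1 and 20 without labelled KO 2, where 5898 and 4899 of all genes were lower because fewer libraries had to agree. Involucrin did not follow the list, with Ivl at 158 and 15.3 CPM against 58.9 and 94.3 CPM.

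In neither the basal nor the luminal urothelial list did a share lie far above that of all genes. Of 28 basal genes 8 were higher (28.6%) and 4 lower (14.3%). Of 21 luminal genes 3 were higher (14.3%) and 6 lower (28.6%). Over all genes 25.5% were higher and 26.7% lower. The wide gaps in the basal list were mixed, with 1 gene higher and 2 lower by at least 2 times. Dsc2, a desmosomal cadherin, had 0.36 and 0.20 CPM in the low-Arid1a libraries against 9.15 and 18.2 CPM, and Tgm1, a transglutaminase of the cornified envelope, had 8.42 and 3.21 CPM against 52.1 and 115 CPM. Ngfr, a neurotrophin receptor of basal cells, had 62.5 and 51.9 CPM in the low-Arid1a libraries against 9.51 and 9.35 CPM. Pparg, the nuclear receptor of luminal differentiation, had 0.47 and 0.49 CPM against 6.37 and 3.70 CPM, and Foxa1, a luminal pioneer factor, had 33.1 and 31.1 CPM against 60.3 and 61.3 CPM. Both luminal regulators were thus lower in both libraries. The structural luminal genes went both ways: Upk3bl had 4.14 and 3.72 CPM against 37.9 and 37.4 CPM, while Upk1b had 4.01 and 19.9 CPM against 0.36 and 0.31 CPM and Krt18 had 126 and 82.8 CPM against 4.19 and 17.2 CPM. The tight junction and adhesion genes were 3 higher and 9 lower of 19, with Cdh1, E-cadherin, at 137 and 135 CPM against 177 and 193 CPM.

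Of 20 mesenchymal genes 10 were higher (50%) and 3 lower (15%), and of 17 matrix genes 7 (41.2%) and 2 (11.8%). Of 19 targets of the YAP and TEAD factors 8 were higher (42.1%) and 3 lower (15.8%). The shares over all genes were 25.5% higher and 26.7% lower. Lamb1, a laminin chain, had 166 and 177 CPM in the low-Arid1a libraries against 2.91 and 17.1 CPM, and Lamc1, its partner chain, had 438 and 316 CPM against 146 and 149 CPM. Spp1, osteopontin, had 21.98 and 11.9 CPM against 0.80 and 0.58 CPM, and Mmp9, a gelatinase, had 22.9 and 11.04 CPM against 1.00 and 1.34 CPM. These genes were present in both low-Arid1a libraries. Vim, the mesenchymal filament, was not: it had 29.1 CPM in labelled WT 1 and 0.32 CPM in labelled KO 2, against 0.02 and 0.08 CPM. Nt5e, the ectonucleotidase CD73, had 28.2 and 13.4 CPM against 0.13 and 0.35 CPM, and Tead1 itself had 212 and 272 CPM against 106 and 101 CPM. Col12a1, a fibril-associated collagen, ran the other way with 19.2 and 62.1 CPM against 305 and 317 CPM. Without labelled WT 1, where 38.3% of all genes were higher and 46.5% lower, the counts were 11 and 6 for mesenchymal, 12 and 4 for matrix and 10 and 5 for YAP target genes. Without labelled KO 2, where 45.3% were higher and 38.6% lower, they were 15 and 5, 8 and 5, and 12 and 7. The higher share of the matrix genes was then near that of all genes, as was the lower share of the YAP targets. The summed fibroblast markers were higher in labelled WT 1 than in the other 3 libraries, and their part in these counts was not tested.

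Subunits of Polycomb, the repressive complexes that BAF works against, were higher at 14 (46.7%) and lower at 3 (10%) of 30. The shares over all genes were 25.5% and 26.7%. The gaps were small: Phc2, a PRC1 scaffold, had 315 and 332 CPM against 224 and 227 CPM (1.38 times), and Phf19, a PRC2 partner, had 9.51 and 5.97 CPM against 3.46 and 4.09 CPM (1.46 times). The methyltransferase Ezh2 had 124 and 131 CPM against 123.3 and 117.3 CPM. No member reached 2 times, and the median member lay 0.13 and 0.09 log2 units above its mean in the low-Arid1a libraries, against -0.05 and -0.09. With TMM or DESeq2 factors the counts were 13 higher and 1 lower. Without labelled WT 1 they were 20 and 5, where 38.3% of all genes were higher and 46.5% lower. Without labelled KO 2 they were 20 and 9, where 45.3% of all genes were higher and 38.6% lower. Of 26 BAF subunits, 5 were higher (19.2%) and 4 lower (15.4%), Arid1a among the lower. Both shares were below those of all genes. The paralogue Arid1b had 104 CPM in both low-Arid1a libraries, against 93.8 and 79.8 CPM. Arid2, of the related PBAF complex, had 56.9 and 124 CPM against 49.1 and 42.8 CPM, and the ATPase Smarca4 overlapped at 399 and 393 against 429 and 384 CPM.

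Oxidative phosphorylation and ribosomal protein genes were lower at most members by small steps. Of 54 respiratory chain and ATP synthase genes 42 were lower (77.8%) and 1 was higher. Of 61 cytosolic ribosomal protein genes 37 were lower (60.7%) and 1 was higher. The shares over all genes were 26.7% lower and 25.5% higher. Cox6a1, a cytochrome oxidase subunit, had 136 and 141 CPM in the low-Arid1a libraries against 199 and 203 CPM, a gap of 1.41 times. No member of either list reached 2 times. Across the scalings tried the lower counts were 41 to 44 and 37 to 40. Without labelled WT 1, where 46.5% of all genes were lower, they were 46 and 52. Without labelled KO 2, where 38.6% of all genes were lower, they were 48 and 38. The elongation factor Eef2 had 3623 and 3149 CPM against 4712 and 4376 CPM, and Eef2k, the kinase that inhibits it, had 16.02 and 30.6 CPM against 55.3 and 46.4 CPM.

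Transcript length moved with these counts. With tested genes ranked by their longest transcript and cut into 4 equal bins, 15.99% of the shortest bin (up to 2153 bases) were higher and 35.4% lower. In the longest bin (4736 bases or more), 36.0% were higher and 18.2% lower. The median length was 1120 bases for the ribosomal protein genes, 1232 for the oxidative phosphorylation genes, 1996 for the squamous genes and 4004 for the Polycomb genes, against 3330 for the tested genes with a length. The part of length in the list counts was not tested.

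Of 50 mitosis genes 13 were higher and 12 lower, near the background. Of 48 DNA replication genes 8 were higher and 9 lower, a smaller share than over all genes in each direction. Mki67 had 884 and 898 CPM against 953 and 926 CPM. In the primary organoids 49 of 50 mitosis genes rose in KO over WT, where 27% of all tested genes rose. Among growth factor receptors, Fgfr3 had 79.8 and 94.8 CPM in the low-Arid1a libraries against 32.0 and 43.5 CPM, and Dusp6, a feedback phosphatase of the ERK pathway, had 261 and 367 CPM against 143 CPM in both others. Of the EGF and FGF receptor list 8 were higher (36.4%) and 2 lower (9.09%) of 22, against 25.5% and 26.7% of all genes. Without labelled KO 2 the counts were 9 and 9, where 45.3% of all genes were higher and 38.6% lower. Slc7a11, the cystine importer of the glutathione pathway, was lower with 45.6 and 96.9 CPM against 221 and 232 CPM. Of 40 genes of that list 14 were lower (35%) and 7 higher (17.5%), against 26.7% and 25.5% of all genes. Of 24 interferon response genes 4 were higher and 1 lower, and of 18 antigen presentation genes 3 and 0, both below the background of separated genes. Labelled WT 1 and labelled KO 2 lay apart here: the median interferon gene was at 0.57 and -0.49 log2 units from its mean, against -0.32 and 0.07 in labelled WT 2 and labelled KO 1. Without labelled KO 2, 20 interferon genes and 12 antigen presentation genes were higher (45.3% of all genes were), and without labelled WT 1, 12 and 9 were lower (46.5% of all genes were).

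**Figure D3:**
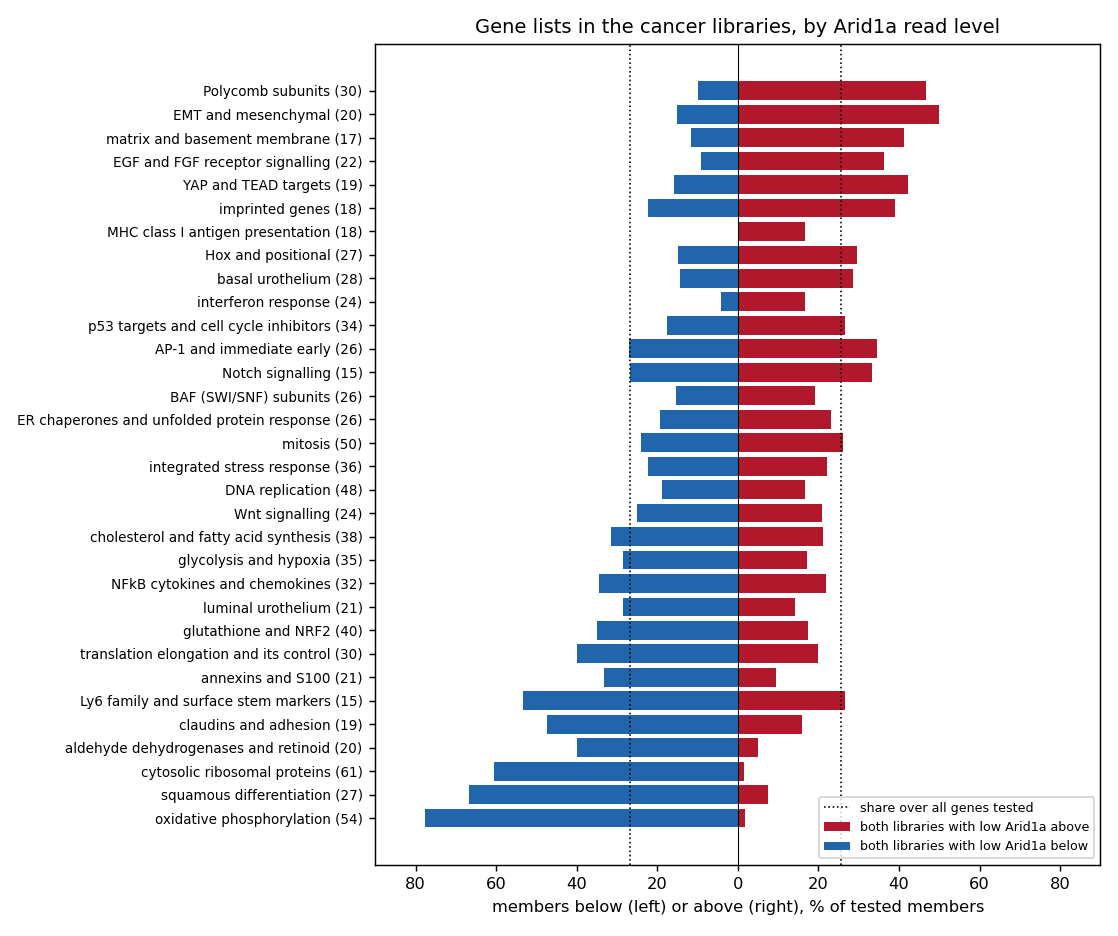
Share of tested members (x axis, %) with both low-Arid1a libraries above (red, right) or below (blue, left) both high-Arid1a libraries, for each gene list with at least 10 tested members (number in brackets); dotted lines are the shares over all genes tested. Oxidative phosphorylation (42 of 54 lower), squamous differentiation (18 of 27 lower) and Polycomb subunits (14 of 30 higher) lie far from the dotted lines, and mitosis (13 higher and 12 lower of 50) lies near them.

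Imprinted genes ran both ways, with 3 higher and 3 lower by a gap of at least 2 times. H19, an imprinted long noncoding RNA, had 363 and 73.7 CPM in labelled WT 1 and labelled KO 2, against 1.15 and 0.54 CPM. Cdkn1c, an imprinted inhibitor of cyclin-dependent kinases, had 20.4 and 39.6 CPM against 0.19 and 0.39 CPM, a gap of 52.0 times. Phlda2 from the same region of chromosome 7 was lower, with 0.83 and 1.71 CPM against 7.56 and 10.0 CPM. Cd81 was also lower, with 11.5 and 21.2 CPM against 92.6 and 105 CPM, as was Peg3, with 3.69 and 3.70 CPM against 15.4 and 12.3 CPM. Of 18 imprinted genes tested, 7 were higher (38.9%) and 4 lower (22.2%), against 25.5% and 26.7% of all genes. H19 and Cdkn1c also rose in primary KO organoids. H19 had 1035, 829 and 904 CPM there in KO, against 47.0, 33.1 and 27.6 CPM in WT (log2 fold change 4.66 ± 0.17 SE, n = 3 each; edgeR adjusted p = 2.41e-09). Cdkn1c had 9.26, 8.81 and 8.23 CPM in KO against 1.83, 2.07 and 1.85 CPM in WT (log2 fold change 2.17 ± 0.12 SE; edgeR adjusted p = 5.67e-08).

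In the primary organoids 7025 of 13198 tested genes (53.2%) passed an adjusted p of 0.05, 3557 rising in KO (27%) and 3468 falling (26.3%). Of 3181 risen genes that were tested in the cancer libraries, 26.8% were higher and 27.5% lower where Arid1a was low, and of 3117 fallen genes 24% were higher and 27.6% lower. Both pairs lie near the 25.4% and 26.7% over the 11907 genes tested in both. Restricted to primary changes of at least 2 times, 30.8% of 627 risen genes were higher and 28.1% lower, and 20.7% of 460 fallen genes were higher and 32.8% lower. Of the lists, mesenchymal genes were 2 risen and 14 fallen of 21 in primary KO, YAP targets 2 and 13 of 22, and matrix genes 6 and 12 of 19. Squamous genes were 11 risen and 8 fallen of 24, Polycomb subunits 9 and 6 of 30, oxidative phosphorylation genes 16 and 3 of 54, and ribosomal protein genes 34 and 0 of 61. The oxidative phosphorylation share that rose is near the 27% of all genes. Among genes past 2 times in both materials with a mean of at least 5 CPM, 61 ran the same way and 48 the opposite way.

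Genes of that count that ran the same way included Ngfr and Serpinb2 on the higher side and Krt10 on the lower. Fgfr3, with a gap of 1.83 times and so outside the count, also ran the same way. It had 44.3, 36.8 and 45.0 CPM in primary KO against 6.98, 5.07 and 5.52 CPM in WT, a log2 fold change of 2.82 ± 0.12 (SE; edgeR adjusted p = 6.67e-09). Krt10 had 4.10, 5.001 and 4.72 CPM in KO against 15.9, 11.7 and 10.1 CPM in WT, so it fell in KO at a level far under that of the cancer libraries. Nrp1 ran the opposite way, with 1.14, 1.25 and 0.74 CPM in primary KO against 18.6, 20.1 and 18.9 CPM in WT (log2 fold change -4.23 ± 0.15 SE; edgeR adjusted p = 2.15e-09). Slc7a11 and Tgm1 rose in primary KO and were lower in the low-Arid1a cancer libraries, and Spp1, Nt5e, Cald1 and Cx3cl1 fell in primary KO and were higher in those libraries. Pparg (log2 fold change 1.23, mean under 5 CPM in the cancer libraries) and Eef2k (under 2 times) ran the opposite way outside the count, Eef2k with a primary log2 fold change of 0.74 ± 0.04 (SE; edgeR adjusted p = 1.06e-07). These named genes were picked from both sides after their values were seen.

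Around Arid1a, most of the 41 expressed genes within 1 Mb varied little, with a median range over the 4 libraries of 1.35 times. Of these 41 genes, 6 were higher and 13 lower in the low-Arid1a libraries, against 25.5% and 26.7% of all tested genes. Pigv, the nearest at lower coordinates, had 8.997 and 8.91 CPM against 9.67 and 8.16 CPM. Rps6ka1, a ribosomal S6 kinase on the other side, had 91.2 and 83.6 CPM against 112 CPM in both others. Aim1l, 304 kb away, had a wider gap than Arid1a, with 3.91 and 2.06 CPM against 19.3 and 19.4 CPM. Gaps of over 2 times also stood at Fam46b, 191 kb away (lower, 2.27 times), and at Sepn1 and Xkr8 (higher, 2.17 and 2.16 times). The Arid1a gap was thus not shared by its closest neighbours, and it was not the widest within 1 Mb.

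**Figure D4:**
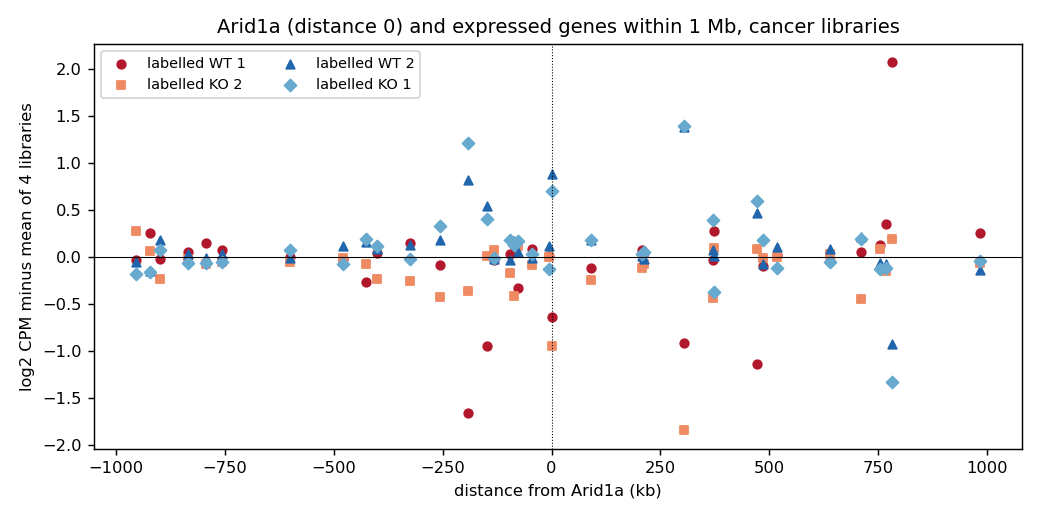
log2 CPM minus the mean of the 4 cancer libraries (y axis) by distance from Arid1a in kb (x axis) for Arid1a, at distance 0, and the genes within 1 Mb with a mean of at least 5 CPM, 1 point per library. At Arid1a labelled WT 1 and labelled KO 2 (79.2 and 64.1 CPM) lie below labelled WT 2 and labelled KO 1 (228 and 201 CPM), and most neighbours lie near 0, with Aim1l (gap 4.93 times) and Fam46b (2.27 times) among the exceptions.

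Chromosome 7 stood apart among the chromosomes. Of its 965 tested genes 10.3% were higher and 49.0% lower in the low-Arid1a libraries, against 25.5% and 26.7% over all genes. Labelled WT 1 lay lowest, and labelled KO 2 lay between it and the other pair. In labelled WT 1 the median gene of at least 5 CPM was -0.23 log2 units from its mean over the 4 libraries. It was at -0.05 in labelled KO 2, against 0.13 in both labelled WT 2 and labelled KO 1. Labelled WT 1 was negative in all 8 windows of 20 Mb, from -0.17 to -0.29. Chromosome 14 (-0.16) and chromosome 3 (-0.10) were also lower in labelled WT 1, and chromosome 13 was higher in labelled KO 2, at 0.19. Chromosome 4, which carries Arid1a, was at 0.04 and -0.05 in labelled WT 1 and labelled KO 2. One window of 39 genes, at 140–160 Mb of chromosome 3, was at -0.58 in labelled KO 2. Among the named genes on chromosome 7, H19, Cdkn1c and Lgals7 were higher. Eef2k, Phlda2, Cd81, Peg3, Ano1 and Lmo1, also on chromosome 7, were lower. The part of the chromosome 7 shift in the values of these genes was not tested. The chromosome medians were computed after the values were seen.

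**Figure D5:**
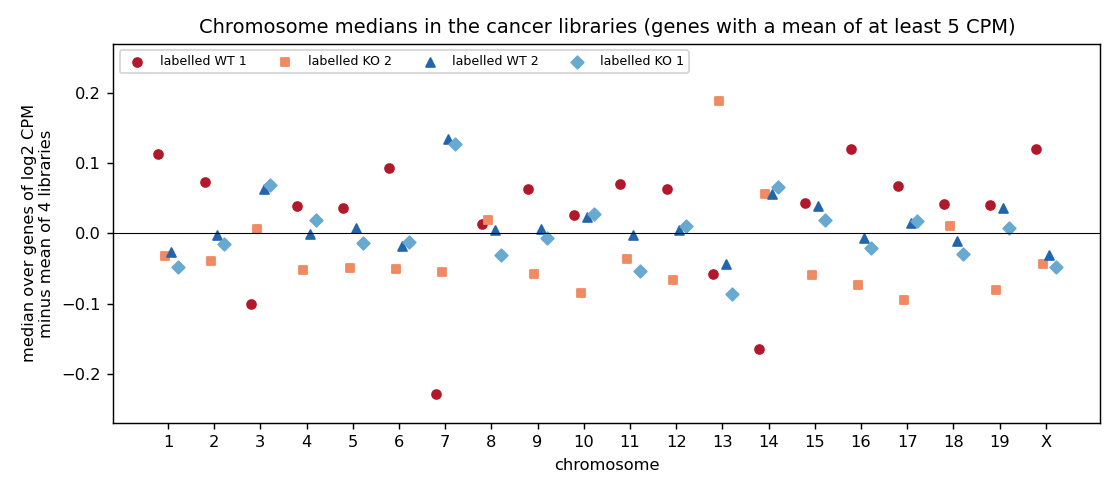
Median over genes with a mean of at least 5 CPM of log2 CPM minus the mean of the 4 cancer libraries (y axis), by chromosome (x axis), 1 point per library. On chromosome 7 labelled WT 1 lies at -0.23 and labelled WT 2 and labelled KO 1 at 0.13, and on chromosome 13 labelled KO 2 lies at 0.19.

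Each of the 2 low-Arid1a libraries also carried genes that no other cancer library had. With at least 5 CPM in 1 library and at most 0.1 CPM in the other 3, 15 genes were on in labelled KO 2 alone and 5 in labelled WT 1 alone, against 0 in labelled WT 2 and 0 in labelled KO 1. Nrk, a serine/threonine kinase on the X chromosome, had 131 CPM in labelled KO 2 and at most 0.06 CPM in the others, and Rps6ka6, an X-linked ribosomal S6 kinase, had 90.1 CPM and at most 0.04 CPM. Fgfr1, a fibroblast growth factor receptor, had 18.6 CPM there and at most 0.08 CPM elsewhere, and Mycn, a MYC family transcription factor, had 14.6 CPM and at most 0.08 CPM. Labelled WT 1 alone had Col3a1, a fibrillar collagen, at 8.52 CPM, against at most 0.04 CPM. In the reverse direction, 5 genes were missing from labelled KO 2 alone, among them the Y-linked Eif2s3y, Kdm5d and Uty, and Tep1 was missing from labelled WT 1 alone. Since labelled WT 2 and labelled KO 1 were alike across genes, few genes could be on or missing in 1 of them alone. These counts were made after the values were seen and were not shown to go with Arid1a.

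As labelled, KO against WT gave 0 of 12681 genes (0%) at an adjusted p of 0.05 with edgeR in the cancer libraries, with 96 at an unadjusted p under 0.05; DESeq2 gave 7 higher and 3 lower. The genes with the smallest p in edgeR were ranked by this labelled fit. That they followed the labels is set by the choice and says nothing on whether the labels hold. Ccl2, a monocyte chemokine, had 43.8 and 65.1 CPM in the KO libraries 1 and 2 against 13.5 and 10.3 CPM in the WT libraries 1 and 2 (log2 fold change 2.24 ± 0.31 SE). Aldh3a1, an aldehyde dehydrogenase, had 66.0 and 43.8 CPM in KO against 213 and 260 CPM in WT (-2.07 ± 0.27 SE), and Krt15, a basal keratin, had 165 and 136 CPM in KO against 359 and 345 CPM in WT (-1.19 ± 0.15 SE). Ly6c1 had 228 and 220 CPM in KO against 120 and 128 CPM in WT. None of these passed adjustment in edgeR on the 4 libraries. DESeq2 called Ica1, Ccl2, Ly6c1, Krt15 and Aldh3a1, with adjusted p of 8.38e-05, 4.42e-06, 9.32e-06, 1.62e-07 and 1.18e-07, and not Krt20 (0.0771). The edgeR fit on all 10 total RNA libraries called Ica1, Ccl2, Krt15 and Aldh3a1, with adjusted p of 0.00551, 0.0457, 0.00764 and 0.0158, and neither Ly6c1 nor Krt20 (0.0682 for both). In the same 10 libraries, an edgeR interaction term for the labelled KO effect in cancer against primary organoids passed an adjusted p of 0.05 at 448 of 14305 genes (3.13%), 8 of the 145 named genes among them. Both results from the 10 libraries take 1 spread per gene over cancer and primary libraries. Their p-values can therefore rest on too small a spread for the cancer libraries.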

How the data were processed

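The authors deposited raw counts of reads per gene, 1 table per library. The submitters' processing notes name HTSeq and mm10 for the cancer libraries, and Bowtie as well for the others; versions, the gene annotation, strandedness and the aligner for the cancer libraries are not stated in the labels. Per the labels' protocols, cancer RNA was column-purified with DNase treatment.

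Levels are CPM of each library's own total. Tested genes passed edgeR's filterByExpr over the 4 cancer libraries (12681 of 24421). Gaps are log2 of the nearest libraries of the 2 sets, with counts under 3 raised to 3. Labelled KO against WT was fitted with edgeR 4.0.16 quasi-likelihood (TMM, Benjamini-Hochberg) on the 4 cancer libraries and, separately, on the 6 primary libraries; DESeq2 1.42.0 was an alternative. At these depths 3 reads equal 0.05 to 0.06 CPM in a cancer library; counting intervals cover counting error only.

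Members, lists and tests were chosen with earlier results of these data known. Named genes are a fixed set that includes Arid1a, the 12 widest gaps in each direction at a mean of at least 16 CPM (predicted genes and pseudogenes left out), the 3 widest per list at a mean of at least 5 CPM, Y-linked genes, genes with reads in 1 set, the 3 smallest p in each direction of the labelled fit, and neighbours of Arid1a; other list members named were picked after their values were seen. The genes counted by gap against within-set differences, the crossed pairing, list counts under other settings, transcript length, chromosomes, single-library genes and the test of cancer against primary effects were added after the data were seen. Lengths are the longest GENCODE M21 transcript of a symbol, for 96.4% of tested genes. Promoters and positions come from RefSeq GRCm38.p6, matched by symbol for 12646 tested genes.

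Replicate numbers did not pair the samples: same-numbered deviations from the group means correlated at -0.42 in the cancer libraries and at 0.13, 0.03 and -0.06 in the primary ones. The labels name no batch for the cancer libraries. The fractions were not used here.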

Additional observations from a re-analysis of the deposited data

Results flagged for a closer look

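The labelled KO effect (log2 fold change of KO over WT) differed between cancer and primary organoids at 8 of 145 named genes, by an edgeR interaction term on the 10 total RNA libraries that was added after the data were seen. That fit takes 1 spread per gene over cancer and primary libraries, so its adjusted p-values can rest on too small a spread for the cancer libraries. Over all genes the term passed at 448 of 14305 (3.13%). It was higher in cancer at Ica1, by 5.28 (SE 0.47, adjusted p = 0.00271), with effects of 5.78 in cancer and 0.49 in primary organoids. At Ccl2 the difference was 5.14 (SE 0.36, adjusted p = 0.00135), with effects of 2.24 and -2.92. At Krt15 it was -1.46 (SE 0.13, adjusted p = 0.00246), with effects of -1.19 and 0.25. At Aldh3a1 it was -3.78 (SE 0.27, adjusted p = 0.00135), with effects of -2.07 and 1.68. These 4 were named because of their small p in the labelled cancer fit, so the cancer side of the difference is not independent of the choice. The other 4 had cancer effects within 1 SE of 0. The difference was -3.20 at Phf19 (adjusted p = 0.0370), -1.68 at the DNA ligase gene Lig1 (adjusted p = 0.0278), -1.66 at the DNA polymerase gene Pole (adjusted p = 0.0367) and 1.52 at the adhesion gene Epcam (adjusted p = 0.0315). The primary effects at these genes were 2.86, 1.56, 1.62 and -1.63. The effects rest on labels that the Arid1a read level goes against in 2 of the 4 cancer libraries.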

How the results depend on the processing

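Arid1a kept its order under every scaling tried. The separated counts moved with the gap asked for: 680 higher and 808 lower at 1.5 times, and 1277 and 1348 where the gap exceeded both differences within the sets. With 1 cancer library left out, fewer libraries have to agree, and the counts ran from 4151 to 5743 higher and from 4342 to 5898 lower; they were 4851 and 5898 without labelled WT 1 and 5743 and 4899 without labelled KO 2. At a distance of 1.5 times, labelled WT 2 and labelled KO 1 differed at 1876 genes, and the other pairs at 3830 (labelled WT 1 and KO 2), 3879 (labelled WT 1 and WT 2), 3883 (labelled WT 1 and KO 1), 3878 (labelled KO 2 and WT 2) and 4039 (labelled KO 2 and KO 1). The primary risen genes of at least 2 times were 193 higher and 176 lower, and the fallen ones 95 and 151. With 1 cancer library left out, 1035 to 1527 of all risen genes were higher and 1064 to 1571 lower, and 973 to 1316 of the fallen ones were higher and 1067 to 1436 lower.

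For labelled KO against WT, DESeq2 called 7 higher and 3 lower and a fit on all 10 total RNA libraries 6 and 5, whose cause was not tested; edgeR called 0 with any 1 library left out, a fit in which the lone library is assumed to vary like the pair and which says little on stability. With the replicate block, edgeR called 0 cancer genes, and 3532 rose and 3405 fell in the primary organoids, within 1.5 times of the counts without it. Crossed pairing of the cancer numbers, which sets the libraries of like Arid1a level side by side, also called 0, with 253 at an unadjusted p under 0.05. Primary counts with 1 library left out ran from 3074 to 3430 risen and 3067 to 3335 fallen. Of 144 named genes with a gap or overlap, 139 moved by less than the difference between replicates with TMM scaling and 5 moved more. With 1 library left out, 54 moved more without labelled KO 2, 50 without labelled WT 1, 32 without labelled KO 1 and 24 without labelled WT 2. None reversed under these settings. The labelled cancer test is limited by its 2 libraries per label.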
